A study of Mus musculus with 2 samples.

Results

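Homing and chemokine receptors decide where a T cell can travel, and 8 of their genes were followed here in CD8+ T cells taken from mouse tumors. The 8 were chosen by name out of the 32285 genes counted, with earlier results of these data known. They were Ccr7 and S1pr1, which act in lymphoid homing, and Cxcr3, Cxcr4, Cxcr6, Ccr2, Itgae and Itga4, which act in tissues. The cells came from male C57Bl/6J mice aged 16 weeks that carried transplanted B16 F0 tumors, a melanoma line, harvested on day 14. Mice had been fed either normal chow (NC, the lean group) or a western diet (WD, the obese group) for 12 weeks, and the labels name no genetic change in either group. CD8+ cells were enriched with magnetic beads and sorted on CD8 to at least 99% purity. Each diet gave 1 library of single-cell RNA, and the number of mice behind each library was not given in the sources used here. No replicate exists, so no test between diets was possible, and every interval below is a 95% interval that covers counting error only.

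CCR7 is the chemokine receptor that draws naive and central memory T cells into lymph nodes, where stromal cells make its ligands CCL19 and CCL21. S1PR1 senses the lipid sphingosine-1-phosphate, which is abundant in blood and lymph, and lets T cells leave lymphoid organs; activated and resident T cells lower it and so stay in place. CXCR3 answers to the interferon-induced chemokines CXCL9, CXCL10 and CXCL11, CXCR6 to CXCL16, CCR2 to CCL2 and its relatives, and CXCR4 to CXCL12. ITGAE is the CD103 chain that holds resident T cells to E-cadherin, and ITGA4 is the alpha chain of the integrins that bind VCAM1, fibronectin and, with the ITGB7 chain, mucosal vessels. The transcription factors FOXO1 and KLF2 keep Ccr7 and S1pr1 on in resting T cells, while T-box and RUNX factors act in effector and tissue T cells.

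The RefSeq table of promoter windows (GRCm38.p6) held 5 of the 8 genes: Cxcr3, Cxcr4, Cxcr6, Ccr2 and Itga4. For the windows of Cxcr3 and Ccr2, 122 and 233 of the 250 bases before the RefSeq start lay inside the gene as GENCODE draws it, so only the other windows are printed. They stand for the opposite patterns described below, Cxcr4 being the tissue receptor whose levels follow the naive side and Cxcr6 and Itga4 being higher on the effector side. Each line gives the 250 bases before the start, 5′ to 3′ on the gene's strand, with capitals marking a match to CACCC (the core bound by KLF factors) or TGTGGT (the core bound by RUNX factors) on either strand.
Cxcr4 (chr1:128592300-128592549, minus strand): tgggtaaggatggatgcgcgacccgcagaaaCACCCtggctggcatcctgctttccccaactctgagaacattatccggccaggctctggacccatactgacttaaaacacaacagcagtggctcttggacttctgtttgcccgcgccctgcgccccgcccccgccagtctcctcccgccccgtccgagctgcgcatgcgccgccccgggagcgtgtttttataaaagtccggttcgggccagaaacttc
Cxcr6 (chr9:123806227-123806476, plus strand): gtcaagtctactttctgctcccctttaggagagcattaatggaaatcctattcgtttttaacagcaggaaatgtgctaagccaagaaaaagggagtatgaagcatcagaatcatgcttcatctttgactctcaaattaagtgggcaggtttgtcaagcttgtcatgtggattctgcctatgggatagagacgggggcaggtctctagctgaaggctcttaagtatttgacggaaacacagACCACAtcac
Itga4 (chr2:79255176-79255425, plus strand): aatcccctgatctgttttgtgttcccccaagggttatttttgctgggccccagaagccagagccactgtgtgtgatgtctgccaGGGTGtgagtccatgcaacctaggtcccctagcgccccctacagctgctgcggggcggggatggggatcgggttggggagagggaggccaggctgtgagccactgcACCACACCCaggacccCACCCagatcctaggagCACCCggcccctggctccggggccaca
The KLF core stood once in the Cxcr4 window and 4 times in the Itga4 window, and 52.0% of the 32851 windows of this length in that table held it. The RUNX core stood once each in the windows of Cxcr6, Itga4 and Cxcr3, against 14.05% of all windows, and in Itga4 it overlaps a KLF core by 2 letters. The FOXO core TGTTTAC and the T-box core AGGTGTGA, held by 3.17% and 1.12% of all windows, were in none of the 5. A match of letters is a description of the window and not a measured site.

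The authors deposited raw counts of UMIs, the random tags that let every RNA molecule caught from a cell be counted once. Cells were kept if their total lay above 500 and below 50000 UMIs and less than 7.5% of it was mitochondrial, which left 2456 of 2697 cells and 27815785 UMIs for NC and 2289 of 2623 cells and 28705830 UMIs for WD. The median kept cell held 7958 UMIs in the NC library and 9103 in the WD library. A UMI of Cd8a or Cd8b1 was found in 96.1% of NC cells and 96.7% of WD cells. The kept cells of the libraries shared 2 barcodes. Levels are given as CPM, the UMIs of a gene per 1000000 UMIs of the same cells, with exact Poisson intervals. The libraries count 3′ ends, so a CPM value was compared between groups of cells for the same gene and not between genes.

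Cell states came from clusters computed without the 8 receptors and without 40 other homing genes, so the receptors did not shape the clusters. At the lowest resolution with 6 clusters, 4 were large. The naive- or memory-like cluster (571 NC and 426 WD cells) was led by Satb1, Lef1 and Tcf7. The effector-like cluster (611 and 304 cells) was led by Gzmf, Penk and Lgals3, and the proliferating-like cluster (481 and 577 cells) by Pclaf and histone genes. The last of them held 505 NC and 776 WD cells. It was led by Gzma, a granzyme gene, with Ifit3 and Ifit1, interferon-induced genes, and is called the Gzma-Ifit cluster here. Finer clustering put 1043 of its cells in a group led by Gzma and Ccl5 and 131 in a group led by interferon-induced genes. It made up 20.6% of NC cells and 33.9% of WD cells, and the effector-like cluster made up 24.9% and 13.3%. A cluster of 464 shallow cells led by the nuclear RNA gene Gm26917 and a dendritic-like cluster of 30 cells complete the set.

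Ccr7 (ENSMUSG00000037944, GRCm38 chr11:99144196-99155077) reached 222 CPM (211 to 232) over both libraries in cells of naive or memory type, at 50.4 CPM (46.6 to 54.4) in the effector-like cluster, at 36.0 CPM in the Gzma-Ifit cluster and at 23.8 CPM in the proliferating-like cluster. None of these neighbouring intervals overlapped, but the place of the effector-like cluster rested on the WD library. There Ccr7 was at 81.6 CPM in the effector-like and 33.8 CPM in the Gzma-Ifit cluster. In NC the order was the other way, at 32.4 CPM (28.7 to 36.6) and 40.3 CPM (33.1 to 48.7), with overlapping intervals. S1pr1 (ENSMUSG00000045092, chr3:115710433-115715072) had another order, with 122 CPM (115 to 130) for the naive- or memory-like cells, 85.9 CPM (79.6 to 92.7) in the Gzma-Ifit cluster, and 7.71 and 7.32 CPM in the effector-like and proliferating-like clusters, whose intervals overlapped. The lymphoid receptors thus parted in the Gzma-Ifit cluster, where S1pr1 stood closer to its naive level than Ccr7 did. In NC S1pr1 was at 108 CPM (96.0 to 121) there, beside 116 CPM (106 to 127) for the naive- or memory-like cells. In WD it was further below, at 74.8 CPM (67.6 to 82.5) beside 130 CPM (118 to 142). Summed, Ccr7 and S1pr1 were higher in the naive- or memory-like than in the effector-like cluster by 2.57 on the log2 scale (2.45 to 2.68), by 3.03 in the NC library alone and by 2.04 in the WD library alone.

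Cxcr6 (ENSMUSG00000048521, chr9:123806475-123811760) ran the other way. It was at 509 CPM (496 to 521) in the effector-like cluster, 309 CPM (302 to 316) in the proliferating-like cluster, 245 CPM (234 to 256) in the Gzma-Ifit cluster and 24.5 CPM (21.2 to 28.2) among naive- or memory-like cells. Between the naive- or memory-like and effector-like clusters the log2 ratio was -4.38 (-4.59 to -4.17). Ccr2 (ENSMUSG00000049103, chr9:124101950-124113557) was highest in the Gzma-Ifit cluster at 120 CPM (113 to 128), followed by 45.2 CPM in the effector-like, 24.9 CPM in the proliferating-like and 6.12 CPM (4.53 to 8.09) among naive- or memory-like cells.

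Cxcr3 (ENSMUSG00000050232, chrX:101731535-101734269) did not follow the naive to effector axis. It was at 171 CPM (162 to 180) in the Gzma-Ifit cluster, 72.2 CPM (66.4 to 78.3) among naive- or memory-like cells, 46.7 CPM in the effector-like cluster and 37.2 CPM in the proliferating-like cluster. Itga4 (ENSMUSG00000027009, chr2:79255426-79333123) was, among the large clusters, highest in the same one, at 270 CPM (259 to 282). It stood at 138 CPM in the effector-like, 114 CPM in the proliferating-like and 62.0 CPM (56.6 to 67.7) among naive- or memory-like cells. The cluster of shallow cells stood higher for Itga4, at 401 CPM (370 to 433). Cxcr4 (ENSMUSG00000045382, chr1:128588199-128592293) behaved like S1pr1, with 28.0 and 24.4 CPM in the Gzma-Ifit and naive- or memory-like clusters, whose intervals overlapped, and 6.94 and 6.85 CPM in the effector-like and proliferating-like clusters, which also overlapped. Itgae (ENSMUSG00000005947, chr11:73090583-73147446) was scarce, with 199 UMIs in all and at most 8.33 CPM (6.44 to 10.6) in a large cluster. Genes on the opposite strand overlap Cxcr6 (Fyco1), Itgae (Haspin) and Itga4 (Cerkl), with 502, 231 and 58 UMIs of their own in the NC library.

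**Figure D1:**
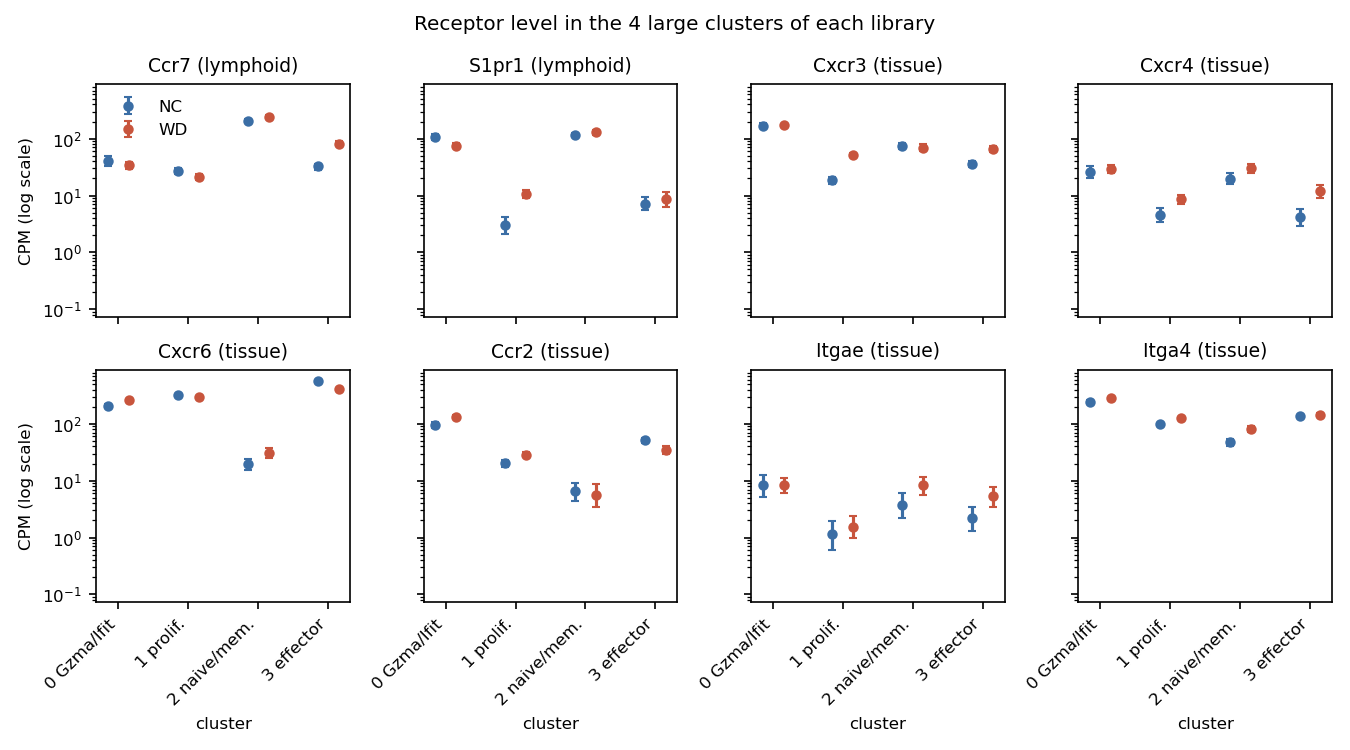
Level of each receptor gene in CPM (log axis) in the 4 large clusters, with NC in blue and WD in red; points are the 2 libraries and bars are exact Poisson 95% intervals. Ccr7 peaks in cluster 2 (naive- or memory-like, 222 CPM over both libraries), Cxcr6 in cluster 3 (effector-like, 509 CPM), and Cxcr3, Ccr2 and Itga4 in cluster 0 (Gzma-Ifit).

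Set against all genes, 3 of the 8 receptors (Ccr7, S1pr1 and Cxcr4) were at least 2-fold higher in the naive- or memory-like cluster, where 5.93% of 9617 genes with at least 50 UMIs were. Another 3 (Cxcr6, Ccr2 and Itga4) were at least 2-fold higher in the effector-like cluster, where 17.1% of these genes were. Cxcr3 and Itgae passed neither limit.

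At the default resolution the cells fell into 13 finer clusters, and Ccr7 and S1pr1 parted in both directions. Finer cluster 6, a naive- or memory-like group led by Lef1 and Igfbp4 (123 NC and 206 WD cells), had the highest levels of both, with Ccr7 at 355 CPM in NC and 371 CPM in WD and S1pr1 at 172 and 161 CPM. Finer cluster 1, led by Klra7 and Satb1 (449 and 220 cells), had less Ccr7, at 175 and 155 CPM, and S1pr1 at 105 and 111 CPM. In finer cluster 0, led by Gzma and Ccl5 (410 and 634 cells), S1pr1 was at 120 CPM in NC and 76.1 CPM in WD beside Ccr7 at 33.4 and 34.0 CPM. Finer cluster 7 was the mirror image. Of its 246 cells 98.4% came from the effector-like cluster, but it got no name from the markers. It was led by the chemokine gene Ccl1, Cd81, the opioid peptide gene Penk and the cytokine gene Csf2. Dapl1, a naive or memory marker, was also among its leading genes. The 8 naive or memory markers summed to 757 CPM in NC and 778 CPM in WD, against 145 and 159 CPM in the Gzmf-led finer cluster 2. The 11 effector markers summed to 2856 and 2843 CPM, against 10209 and 6809 CPM there. In finer cluster 7 Ccr7 stood at 169 CPM in NC and 183 CPM in WD, while S1pr1 stood at 7.53 and 11.5 CPM. The Gzmf-led finer cluster 2, which held most other effector-like cells (502 and 167), had Ccr7 at 8.29 and 12.5 CPM and S1pr1 at 7.13 and 7.15 CPM.

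Klf2, which drives S1pr1, was at 2364 CPM in finer cluster 6, 1518 in finer cluster 1 and 1004 in finer cluster 0 over both libraries, and at 194 and 202 CPM in finer clusters 7 and 2. Finer cluster 7 therefore had Ccr7 without Klf2 or S1pr1 at their naive levels. Itgb1, the integrin partner of Itga4, was at 670 CPM in finer cluster 7 and 532 CPM in finer cluster 0, against 69.2 CPM in finer cluster 6. Cxcr6 was at 633 CPM in finer cluster 2, 141 CPM in finer cluster 7 and 12.4 CPM in finer cluster 6. The scarce Itgae was at 15.1 CPM (10.4 to 21.2) in finer cluster 6, from 33 UMIs. It was at 15.7 CPM (8.57 to 26.3) in the interferon-led finer cluster 8, from 14 UMIs. Finer clusters 0 and 2 had 7.60 and 3.31 CPM of it.

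**Figure D2:**
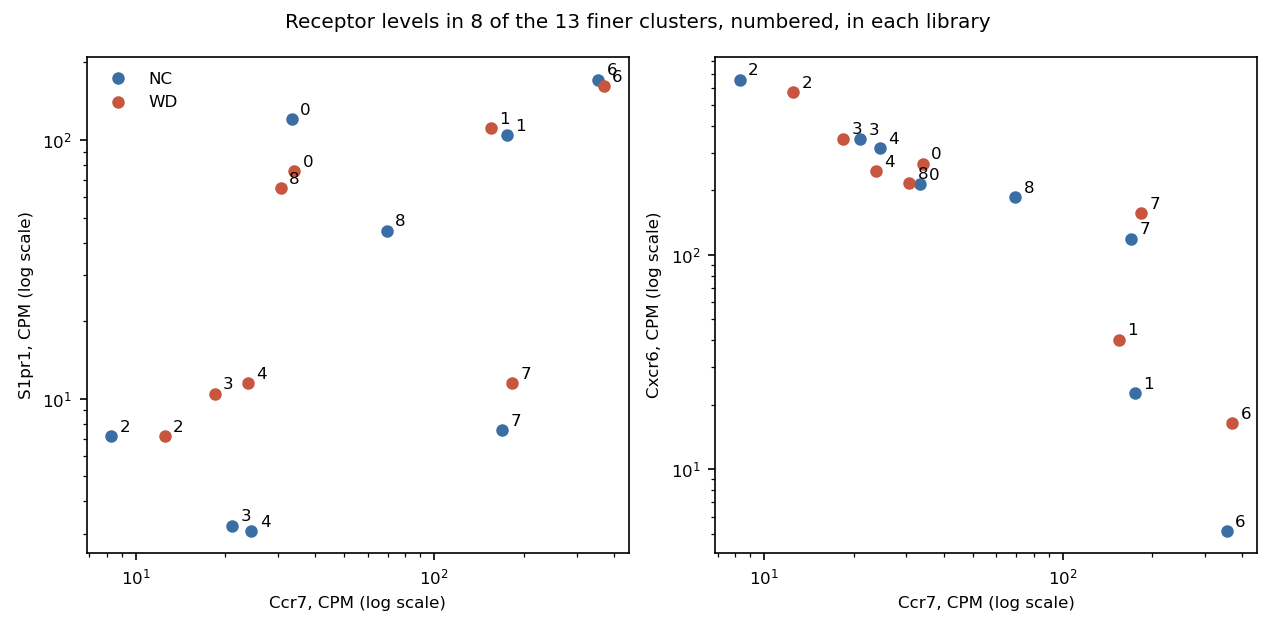
Ccr7 against S1pr1 (left) and against Cxcr6 (right) in CPM on log axes, for 8 of the 13 finer clusters, each numbered and shown once for NC (blue) and once for WD (red). Finer cluster 0 lies high in S1pr1 and low in Ccr7 and finer cluster 7 the reverse, while Cxcr6 runs from 633 CPM in finer cluster 2 down to 12.4 CPM in finer cluster 6 over both libraries.

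Across the 18 profiles of 9 finer clusters in 2 libraries, the log2 level of Ccr7 ran against that of Cxcr6 (Pearson r = -0.90) and Ccr2 (r = -0.77), and with that of S1pr1 only loosely (r = 0.57). S1pr1 ran with Cxcr4 (r = 0.87), and Cxcr6 with Ccr2 (r = 0.82). These profiles share libraries and cell states, and the values describe likeness only. The genes most like Ccr7 among 7613 were Rgs10, an inhibitor of G-protein signals (r = 0.92), Tnfsf8 and Nsg2. S1pr1 was matched best by Gm2682, Arl4c and the quiescence factor gene Foxp1 (each r = 0.97), Cxcr4 by Gtf2i (r = 0.91), the immediate early gene Fos and the integrin gene Itgb7, and Cxcr3 less closely by Scand1 (r = 0.83), the interferon receptor gene Ifnar2 and Hcst. Cxcr6 was matched by S100a4 (r = 0.97), Efhd2 and Serpina3g, and Ccr2 by the death ligand gene Fasl (r = 0.95), Fgl2 and Rab7. Itga4 was matched by Themis, which tunes T cell receptor signals (r = 0.91), Adam19 and Iqgap1, and the scarce Itgae by Resf1 (r = 0.88), Gadd45g and Atf7.

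Whether single cells carried both kinds of receptor was read after each cell had been thinned to 2000 UMIs, which left 2330 NC and 2177 WD cells and left out 126 and 112 shallower ones. A Cxcr6 UMI was found in 9.47% of the 243 NC cells with a Ccr7 UMI (6.09 to 13.9) and in 37.3% of those without (35.2 to 39.4). In WD the shares were 11.2% of 232 cells (7.45 to 16.0) and 34.3% (32.2 to 36.5). Over both libraries the difference was -25.5 percentage points. Ccr2 kept the same side, with 2.06% and 7.38% in NC and 0.862% and 11.0% in WD. S1pr1 lay on the other side, in 19.8% of NC cells with Ccr7 and 8.67% without, and in 20.7% and 9.51% in WD. For Cxcr3 the shares of 10.7% and 12.6% in NC, and of 12.5% and 18.4% in WD, had overlapping intervals. The difference itself was -1.95 percentage points (-5.84 to 2.84) in NC and -5.91 (-10.3 to -0.67) in WD. Over both libraries it was -3.85 (-6.82 to -0.44), a smaller gap than that of Cxcr6.

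**Figure D3:**
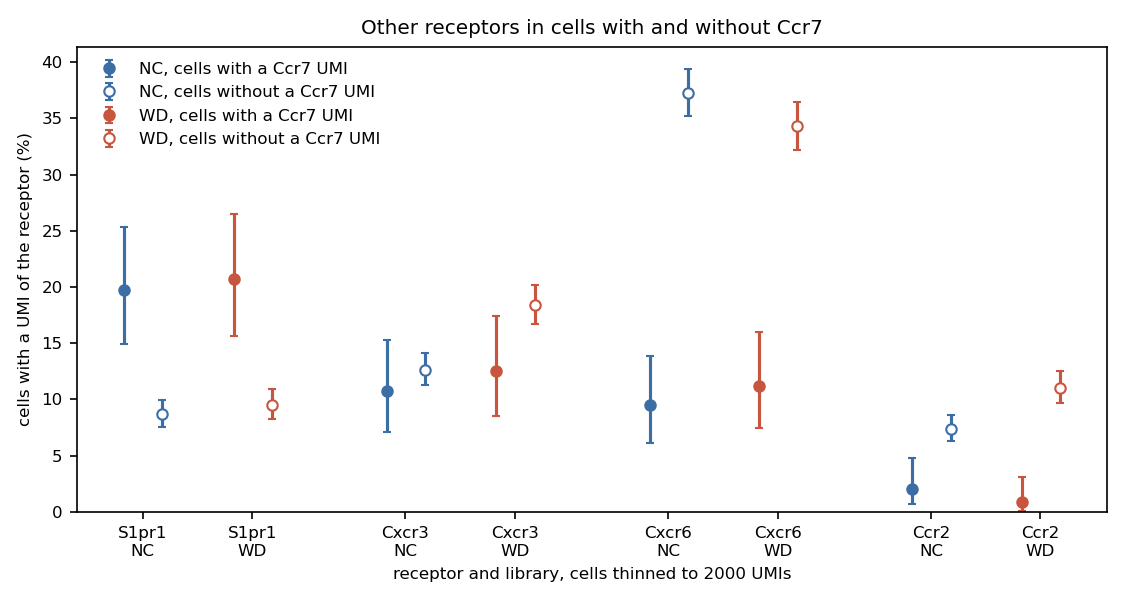
Share of cells (%, y axis from 0) with a UMI of S1pr1, Cxcr3, Cxcr6 or Ccr2 among cells with (filled) and without (open) a Ccr7 UMI, in NC (blue) and WD (red), after thinning to 2000 UMIs; bars are exact Clopper-Pearson 95% intervals. Cxcr6 is found in 9.47% and 11.2% of cells with Ccr7 and in 37.3% and 34.3% of cells without.

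Free RNA can give UMIs in cells that do not make a gene, and its level was not measured here. In the naive- or memory-like cluster 3.50% of NC cells and 5.40% of WD cells had a Cxcr6 UMI after thinning, against 62.4% and 42.4% in the effector-like cluster, the median depths of these clusters being 7595 and 12037 UMIs before thinning. Within the naive- or memory-like cells the shares were 1.63% and 3.40% in finer cluster 6 and 4.01% and 7.27% in finer cluster 1. In the Gzmf-led finer cluster 2 a Ccr7 UMI was found in 1.59% of NC and 1.80% of WD cells, against 18.3% and 24.1% in finer cluster 7. Ccr2 was found in 0 of 123 NC cells and 0 of 206 WD cells of finer cluster 6, which at 3 counts of the total allows shares of up to 2.44% and 1.46%, and without thinning 1 NC and 2 WD cells had a UMI. The difference in Cxcr6 share over all cells pools cell states that differ in Ccr7 and Cxcr6. Finer cluster 7 was the only cluster counted by itself, and its few cells with both cannot decide whether the separation holds within a cell state. Of its 246 thinned cells 53 had Ccr7, 43 had Cxcr6 and 9 had both. That puts Cxcr6 in 17.0% of cells with Ccr7 and 17.6% of cells without, so a gap as large as -25.5 percentage points could not occur there. The libraries differed in direction, with 20% and 14.6% in NC and 15.2% and 20.2% in WD. Without thinning 125 had Ccr7, 116 had Cxcr6 and 55 had both. Cxcr6 was then in 44% of cells with Ccr7 and 50.4% of cells without, and no interval was taken for these shares. The part of doublets in these cells was not tested, because the doublet caller marked only 2 of 4745 cells.

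Between diets, over all kept cells, 5 of the 6 tissue receptors were higher in the WD library and Cxcr6 was lower, while the lymphoid receptors differed little. The share of all genes higher in WD by any amount was not counted, so the count of 5 has no share beside it. Cxcr3 stood at 46.7 CPM in NC (1299 UMIs) and 78.7 CPM in WD (2259 UMIs), a log2 ratio of WD over NC of 0.75 (0.65 to 0.85). Cxcr4 stood at 9.31 and 15.8 CPM (log2 ratio 0.76, 0.54 to 0.99), and Itgae at 2.59 and 4.42 CPM from 72 and 127 UMIs (0.77, 0.34 to 1.21). Ccr2 stood at 36.2 and 47.2 CPM (0.38, 0.26 to 0.50) and Itga4 at 125 and 160 CPM (0.36, 0.29 to 0.42). Cxcr6, with 332 CPM in NC and 273 CPM in WD, had a log2 ratio of -0.28 (-0.32 to -0.24). Ccr7 stood at 58.3 and 61.7 CPM (0.08, -0.02 to 0.18) and S1pr1 at 33.2 and 37.3 CPM (0.17, 0.04 to 0.30).

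The median log2 ratio was 0.12 over the 2 lymphoid receptors and 0.57 over the 6 tissue receptors, against 0.04 over all 11258 genes with at least 50 UMIs. This order is one of the 8 receptors only. Among the other homing genes at 10 CPM or more, the median was 0.20 over 5 lymphoid and -0.05 over 11 tissue genes. Cxcr4, counted here as a tissue receptor, followed S1pr1 by cell state. Since the receptors were chosen with earlier results of these data known, the comparison with all genes is a description and no test. A ratio of at least 0.5 toward WD was reached by 3 of the 8 receptors (Cxcr3, Cxcr4 and Itgae) and by 5.77% of all genes, and one of that size toward NC by 0 of the 8 and by 4.15% of all genes. With 1 library per diet, diet cannot be told apart from any other difference between the libraries.

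Since the libraries differed in their mix of cell states, the ratios were also taken with that mix held equal. Each cluster was given the same weight in both libraries, its share of the UMIs of the libraries together. Of the 6 clusters the proliferating-like one, with 11474646 NC and 14087229 WD UMIs, thus weighed most. Over the 6 clusters Cxcr3 kept 0.54, Cxcr4 0.63, Itgae 0.69 and Itga4 0.25. Ccr2 came to 0.16, Cxcr6 to -0.19, S1pr1 to 0.05 and Ccr7 to 0.32. With the 13 finer clusters weighted in this way, Cxcr3 came to 0.57, Cxcr4 to 0.56, Itgae to 0.58, Itga4 to 0.24 and Ccr2 to 0.23. Cxcr6 came to -0.08, S1pr1 to -0.03 and Ccr7 to -0.02. Cxcr3, Cxcr4, Ccr2, Itgae and Itga4 thus remained higher in WD at an equal mix, while the Cxcr6 ratio moved toward 0 as the mix was held equal over finer states.

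**Figure D4:**
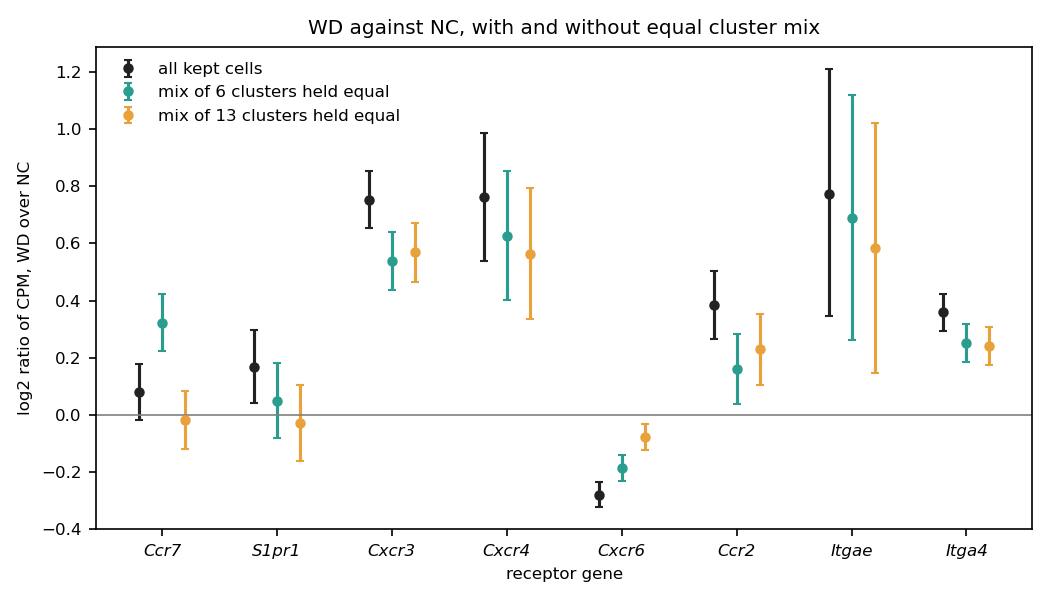
Log2 ratio of CPM, WD over NC, of each receptor gene over all kept cells (black) and with the mix of the 6 (green) or 13 (orange) clusters held equal; bars are 95% intervals for counting error and the grey line marks equal levels. Cxcr3 stays between 0.54 and 0.75 and Cxcr4 between 0.56 and 0.76, while Ccr7 moves from 0.08 to 0.32 and then to -0.02.

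In the proliferating-like cluster 4 of the 7 receptors with enough UMIs were higher in WD by at least 0.5 (S1pr1, Cxcr3, Cxcr4 and Ccr2), as were 5.96% of all genes, and 0 were higher in NC, as were 4.25%. Cxcr3 stood there at 18.5 CPM in NC and 52.5 CPM in WD (log2 ratio 1.51, 1.29 to 1.73), and after thinning a Cxcr3 UMI was found in 4.78% of 481 NC cells and 11.98% of 576 WD cells. The larger finer clusters inside it differed the same way, while finer cluster 11, with 42 cells, held only 11 and 2 Cxcr3 UMIs (29.0 and 11.4 CPM, -1.35, -4.57 to 0.84). The Mcm-led finer cluster 3 had 21.8 and 50.03 CPM, and the histone-led finer cluster 4 had 14.9 and 57.3 CPM. S1pr1 rested on 35 and 152 UMIs in the proliferating-like cluster (3.05 and 10.8 CPM, log2 ratio 1.82), and Klf2 (0.60) and Itgb7 (0.90) were also higher there in WD.

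In the effector-like cluster 3 of 7 (Ccr7, Cxcr3 and Cxcr4) were higher in WD by at least 0.5, beside 9.47% of all genes, and Ccr2 was higher in NC, beside 6.3% of all genes. Cxcr3 stood at 35.6 CPM in NC and 65.9 CPM in WD (0.89, 0.65 to 1.12), and its ratio was 0.71 and 1.08 in finer clusters 2 and 7. After thinning, a Cxcr3 UMI was found in 9.49% of 611 NC and 11.2% of 304 WD effector-like cells. The thinned shares were 9.36% and 7.78% in finer cluster 2 and 10.1% and 15.3% in finer cluster 7. The NC and WD intervals of these shares overlapped each time. Ccr7 stood at 32.4 and 81.6 CPM (1.33, 1.10 to 1.56). Finer cluster 7 made up 109 of the NC and 137 of the WD cells, against 611 and 304 cells in the whole effector-like cluster, and within it the Ccr7 ratio was 0.11 (-0.13 to 0.36). Cxcr6 stood at 568 and 405 CPM in the effector-like cluster (-0.49) and at 657 and 576 CPM in finer cluster 2 (-0.19, -0.27 to -0.11), but at 119 and 156 CPM in finer cluster 7 (0.40, 0.11 to 0.68). The higher Ccr7 in WD effector-like cells therefore went with a larger share of the Ccr7-bearing finer cluster, and the level inside that cluster did not differ beyond counting error.

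In the naive- or memory-like cluster 3 of 6 (Cxcr4, Cxcr6 and Itga4) were higher in WD by at least 0.5, beside 6.07% of all genes, and 0 were higher in NC, beside 5.66%. Itga4 stood at 47.7 CPM in NC and 80.1 CPM in WD (0.75, 0.49 to 1.01), at 39.5 and 65.3 CPM in finer cluster 1 (0.72, 0.38 to 1.07) and at 86.5 and 103 CPM in finer cluster 6 (0.25, -0.17 to 0.69). The Cxcr6 values behind this were 19.6 and 30.7 CPM, with 22.6 and 40.2 CPM in finer cluster 1 and 5.16 and 16.4 CPM in finer cluster 6, and the part of free RNA in them was not tested. In the Gzma-Ifit cluster 0 of 8 were higher in WD by at least 0.5, beside 7.54% of all genes, and S1pr1 was higher in NC, beside 3.92%. There S1pr1 stood at 108 CPM in NC and 74.8 CPM in WD (-0.53, -0.76 to -0.31), Ccr2 at 94.6 and 133 CPM (0.49, 0.28 to 0.71) and Cxcr6 at 209 and 262 CPM (0.33, 0.18 to 0.47). Cxcr3 stood at 169 and 172 CPM in this cluster (0.03, -0.14 to 0.20) and at 74.0 and 69.9 CPM among naive- or memory-like cells (-0.08, -0.33 to 0.16), so in the states with the most Cxcr3 no difference beyond counting error was seen.

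Of 40 other homing genes in the files, 17 reached 10 CPM in a library. In the lymphoid list 5 of 6 did, none of them with a ratio of 0.5 or more either way, and their median was 0.20. In the tissue list 11 of 22 did, with 1 higher in WD (Itgb1), 1 lower (Cx3cr1) and a median of -0.05. Among the genes at 10 CPM or more, over both lists and the ligands, the highest ratios were those of Cxcl10, a CXCR3 ligand that T cells can make themselves, with 29.0 CPM in NC and 59.7 CPM in WD (1.04), of Itgb1, with 211 and 308 CPM (0.55), and of Cd69, which holds S1PR1 inside the cell, with 184 and 260 CPM (0.50). Among the lowest were those of the fractalkine receptor gene Cx3cr1, with 34.0 and 20.1 CPM (-0.75) and the collagen-binding integrin gene Itga1 (-0.32). Of the 12 ligand and counter-receptor genes found, Ccl21a and Cxcl12 had no UMI in either library, and 1 reached 10 CPM (Cxcl10). Beside these ratios, the summed level of the 8 myeloid markers was 212 CPM in NC and 181 CPM in WD, that of the 8 dendritic markers 308 and 363 CPM, that of the 4 NK markers 94.1 and 54.2 CPM with Ncr1 at 0 in WD, and that of the 6 melanoma markers 0.683 and 1.05 CPM with Tyr at 0 in both. The 3 hemoglobin genes were at 0 in NC and summed to 267 CPM in WD. Of their UMIs 7629 lay in the 135 WD cells of the shallow finer cluster 5, led by Gm26917. Every other finer cluster held at most 12 of them in WD. With only cells that had a Cd8a or Cd8b1 UMI and none of Cd4, Cd79a, Lyz2 or Pmel, the median log2 ratio of the tissue receptors followed here was 0.58. It was also 0.58 without the shallow and dendritic-like clusters, against 0.57 over all kept cells. The part of each marker set by itself in the receptor ratios was not tested.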

How the data were processed

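Single-cell RNA was measured in 1 NC and 1 WD library. The authors made the UMI count per gene and cell with Cell Ranger 6.0.2 on mm10, per the submitters' processing notes, and deposited these counts without normalization. No fold changes or other comparisons were in the files.

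Counts were summed per library and group of cells in Python (numpy 2.4.6, scipy 1.17.1, pandas 2.3.3). CPM values carry exact Poisson intervals, log2 ratios exact conditional binomial intervals and shares exact Clopper-Pearson intervals, all at 95% and for counting error only. PCR duplicates are removed by UMIs, and differences between mice are not covered. Clusters were computed in Seurat 5.3.0 (R 4.3.3) from 2000 variable genes without the receptors and other homing genes, 20 principal components and 20 neighbours, with both libraries merged without integration. A cluster was named when at least 3 markers of a list, and more than of any other list, stood among its 20 leading genes. More markers of another list among the very first of these genes left it unnamed, as did a shallow cluster's lack of any marker there. By this rule the Gzma-Ifit cluster was interferon-stimulated, but it is called by its leading genes here. A share that differs from the study's may come from these rebuilt names. Doublets were scored with Scrublet in scanpy 1.11.5, which called 0.0421% of cells; the caller was judged to have failed, and no doublets were removed. The log2 ratio intervals and the thinning were tested on simulated counts, drawn without bunching of UMIs in few cells. The other steps were not tested in this way.

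Named genes were the 8 receptors, the 3 highest and 3 lowest other homing genes at 10 CPM or more, and the 3 genes most like each receptor over the cluster profiles (log2 of CPM + 1, genes with 20 CPM in a profile). Klf2, Itgb1 and Itgb7 in single clusters, the overlapping genes and leading genes of clusters were named after their values were seen. Values of some genes are not reported here. The receptors and lists were chosen with earlier results of these data known. Ccl19 and Ccl21a each have 2 identifiers, which were summed. Gene positions are those of GENCODE for GRCm38 (mm10), in which 99.6% of the 32285 identifiers were found. Alternatives were stricter cell filters, all deposited cells, only cells positive for Cd8a or Cd8b1 that lacked markers of another lineage, Scrublet scores, edgeR 4.0.16 TMM factors, another total, a mean over cells, thinning, the cluster mix and other clusterings. The mix of 13 clusters and leaving out the shallow and dendritic-like clusters were added after the data were seen.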

Additional observations from a re-analysis of the deposited data

Results flagged for a closer look

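4 receptors had WD over NC ratios of opposite sign in different clusters, with intervals for counting error that left out 0 on both sides. The share of all genes that did so was not counted, so this count has nothing to be set against. The differences were not tested, since each diet had 1 library. Ccr7 had a log2 ratio of 1.33 in the effector-like and -0.32 in the proliferating-like cluster, but 0.11 (-0.13 to 0.36) in finer cluster 7 of the former and -0.19 (-0.56 to 0.18) and -0.04 (-0.38 to 0.30) in finer clusters 3 and 4 of the latter. S1pr1 had 1.82 in the proliferating-like cluster, from 35 and 152 UMIs, and -0.53 in the Gzma-Ifit cluster. Cxcr6 had 0.65 in the naive- or memory-like cluster, from 88 and 108 UMIs, and -0.49 in the effector-like cluster. Ccr2 had 0.50 in the proliferating-like and -0.58 in the effector-like cluster. In finer clusters 3 and 4 of the former it had 0.26 (-0.06 to 0.59) and 0.76 (0.42 to 1.11). In finer clusters 2 and 7 of the latter it had -0.23 (-0.52 to 0.06) and -0.91 (-1.76 to -0.08). The ratio in finer cluster 7 rested on 30 UMIs in 9 of 109 NC cells and 23 UMIs in 15 of 137 WD cells. The share of cells with a Ccr2 UMI there thus ran the other way, at 8.26% in NC and 10.9% in WD without thinning.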

How the results depend on the processing

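No paired analysis was possible because each diet had 1 library. Of 96 alternative values of the 8 receptors' ratios over all cells, 70 stayed within the counting interval, 25 moved and 1, S1pr1 at -0.028 with the mix of 13 clusters held equal, moved across 0. Ccr7 (0.08), whose interval held 0 from the start, came to -0.015 with all deposited cells and -0.019 with that mix. The median of the lymphoid receptors (0.12) was 0.0082 with all deposited cells and -0.023 with the mix of 13 clusters held equal. The median of the tissue receptors (0.57) stayed between 0.36 and 0.59 over 12 alternatives. At its lowest, with cells thinned to 1000 UMIs, the medians of the receptors' interval limits were -0.08 and 0.68. Cxcr3 ranged from 0.49 to 0.81, the lowest when cells were thinned to 1000 UMIs, and Cxcr6 from -0.35 to -0.08. Ccr2 ranged from 0.16 to 0.57 and Itga4 from 0.13 to 0.40, and thinned to 1000 UMIs the intervals of both held 0 (-0.11 to 0.59 and -0.07 to 0.32). The interval of Itgae held 0 when thinned to 2000 UMIs (-0.30 to 1.31) and to 1000 UMIs (-0.09 to 2.62). The summed Ccr7 and S1pr1 ratio of the naive- or memory-like over the effector-like cluster (2.57) was 4.04 at the default resolution, 3.03 in NC alone and 2.04 in WD alone. The Cxcr6 ratio (-4.38) was -4.62, -4.86 and -3.72 in the same order. At the default resolution the Ccr7-bearing finer cluster 7 had no name, so it was in neither group of these ratios. The gap in Cxcr6 share between cells with and without Ccr7 (-25.5 percentage points) was -18.7 when thinned to 1000 UMIs and -35.5 without thinning, where deeper cells give more UMIs. Other causes were not tested. Depth limits Itgae, with 199 UMIs over both libraries, and single clusters of S1pr1 and Cxcr4.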
